A study of Mus musculus with 11 samples.

Results

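Scavenger receptors are membrane or secreted proteins with which macrophages bind modified lipoproteins, bacterial surfaces, apoptotic cells and other debris. They are grouped by structure rather than by a shared ancestor. Class A receptors (Marco, Msr1) carry a collagen-like stalk, class B receptors (Scarb1, Scarb2) cross the membrane at both ends, Olr1 is a C-type lectin-like receptor of class E, Stab1 is a large multidomain receptor of class H, and Cd163 and Cd5l are built from cysteine-rich scavenger receptor domains. Most are known as markers of tissue macrophages, and the epidermis is populated instead by Langerhans cells, which share a macrophage origin and acquire dendritic cell functions. The 8 genes were taken by symbol from the 21860 genes of the deposited table, and each matched 1 row. Of these, 6 passed the filter on low values and were tested, and Cd163 and Cd5l did not.

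The samples were 11 bulk RNA-seq libraries of CD11b-low EpCAM+ cells, sorted on day 6 from cultures of mouse bone marrow monocytes. There were 5 groups. Jag1 only was 1 sample, TGFβ/IL-34 had 2 and its FICZ counterpart, TGFβ/IL-34/FICZ, had 2. With Jag1 added there were 3 samples of TGFβ/IL-34/Jag1, and another 3 that received FICZ as well, TGFβ/IL-34/Jag1/FICZ. All cultures held GM-CSF at 20 ng/ml. All but Jag1 only also held IL-34 at 8 µg/ml and TGFβ at 5 ng/ml, cytokines on which Langerhans cells depend. The Notch ligand Jag1 (Jagged-1) was presented by the OP9 mouse stromal line, and FICZ is a ligand of the aryl hydrocarbon receptor (Ahr), called an agonist in the paper and an antagonist in the deposited design. The labels give no strain, age or sex, and do not say whether separate cultures came from separate mice, so p-values measure the spread between these samples. The labels name OP9 cells for every sample, while the labels' protocols seed fewer monocytes on OP9 cells than in plain wells. Jag1, the OP9 cells and the seeding density therefore cannot be told apart. By the sample descriptions, replicate 1 of TGFβ/IL-34/FICZ and replicate 1 of TGFβ/IL-34/Jag1/FICZ ran on the same flow cell. All other samples, among them every sample without FICZ, ran on another. Flow cell and FICZ thus coincide in part, and the flow cell was tried as a block.

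All levels are normalized counts as deposited, with a sum per sample of 21310400 to 27845100. From the spacing of the low values, 1 read was worth about 0.898 to 1.15 normalized counts, so the 3 reads that a value of 0 allows are worth 2.69 to 3.45, a limit that covers counting error only. Epcam stood at 657 normalized counts in Jag1 only and at 3952 to 14377 in the other samples, and langerin (Cd207) ranged from 6.21 to 1784. The summed level of the 6 stroma markers was 12.8 to 38.0 in the cultures without Jag1 and 332 to 4086 in those with it, the highest in TGFβ/IL-34/Jag1/FICZ, and its part in the Jag1 results was not tested. In bulk samples, fewer cells of a type and less RNA per cell cannot be told apart.

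The promoters of 3 genes are printed because these genes carry the main patterns: Olr1, which was lowest in TGFβ/IL-34/Jag1, Stab1, which was low in every Jag1 culture, and Marco, which was highest in Jag1 only. Each line holds the 250 bases before the RefSeq start of the gene (build GRCm38.p6, gene strand, 5′ to 3′), and capitals mark matches to the motifs searched.
Olr1 (chr6:129507166-129507415, minus strand): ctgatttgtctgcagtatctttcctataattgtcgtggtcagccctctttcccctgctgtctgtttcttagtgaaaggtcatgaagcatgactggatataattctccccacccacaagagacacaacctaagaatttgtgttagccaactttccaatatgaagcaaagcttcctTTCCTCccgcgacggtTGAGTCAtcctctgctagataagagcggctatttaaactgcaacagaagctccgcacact
Stab1 (chr14:31168642-31168891, minus strand): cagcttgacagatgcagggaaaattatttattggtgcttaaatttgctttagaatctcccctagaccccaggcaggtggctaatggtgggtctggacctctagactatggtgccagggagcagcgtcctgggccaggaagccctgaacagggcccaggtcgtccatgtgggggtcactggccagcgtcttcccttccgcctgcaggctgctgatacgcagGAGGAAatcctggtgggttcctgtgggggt
Marco (chr1:120505025-120505274, minus strand): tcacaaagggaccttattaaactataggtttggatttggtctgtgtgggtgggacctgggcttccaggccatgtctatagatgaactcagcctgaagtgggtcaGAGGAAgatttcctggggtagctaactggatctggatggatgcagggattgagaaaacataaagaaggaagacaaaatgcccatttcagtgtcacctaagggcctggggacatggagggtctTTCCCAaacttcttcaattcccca

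The search covered both strands for GAGGAA (the core of PU.1 sites), TGANTCA (AP-1), TGGGAA (the core of RBPJ sites, the DNA-binding partner of Notch), GCGTG (the core of Ahr sites) and CACGTG (the E-box of MITF and TFEB). These letters occur in 23.3%, 6.75%, 21.6%, 28.2% and 6.02% of 32851 promoter windows of the same length, so a match is a description and not a binding site. Of the 8 genes, 6 had a promoter in the RefSeq table. GAGGAA, in either orientation, starts 76 bases before the start of Olr1, 30 before that of Stab1, 146 before that of Marco and 66 before that of Cd5l. The AP-1 letters lie 60 bases before the start of Olr1, and the RBPJ core lies 24 bases before the start of Marco on the opposite strand. GCGTG and CACGTG were in none of the 6 windows, and the windows of Scarb2 and Cd163 held no match.

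The receptors differed widely in level. Per kilobase of the canonical transcript, the median over the 11 samples was 605 normalized counts for Scarb2 (LIMP-2, a receptor of the lysosomal membrane), 386 for Scarb1 (SR-B1, which takes up cholesterol from HDL), 145 for Msr1 (SR-A1, a receptor for acetylated and oxidized LDL), 99.8 for Olr1 (LOX-1, a receptor for oxidized LDL), 14.2 for Stab1 (stabilin-1, which clears altered proteins and apoptotic cells) and 2.72 for Marco (a receptor for bacteria and particles). The ranges of neighbouring genes in this order overlapped, and the order itself depended on the culture. Scarb2 was above Scarb1 in 8 of 11 samples, the exceptions being the 3 TGFβ/IL-34/Jag1/FICZ samples. Scarb1 was above Msr1 in 7 of 11, and Msr1 lay above Scarb1 in the 4 samples without Jag1. Olr1 was above Stab1 in 10 of 11 samples.

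**Figure D1:**
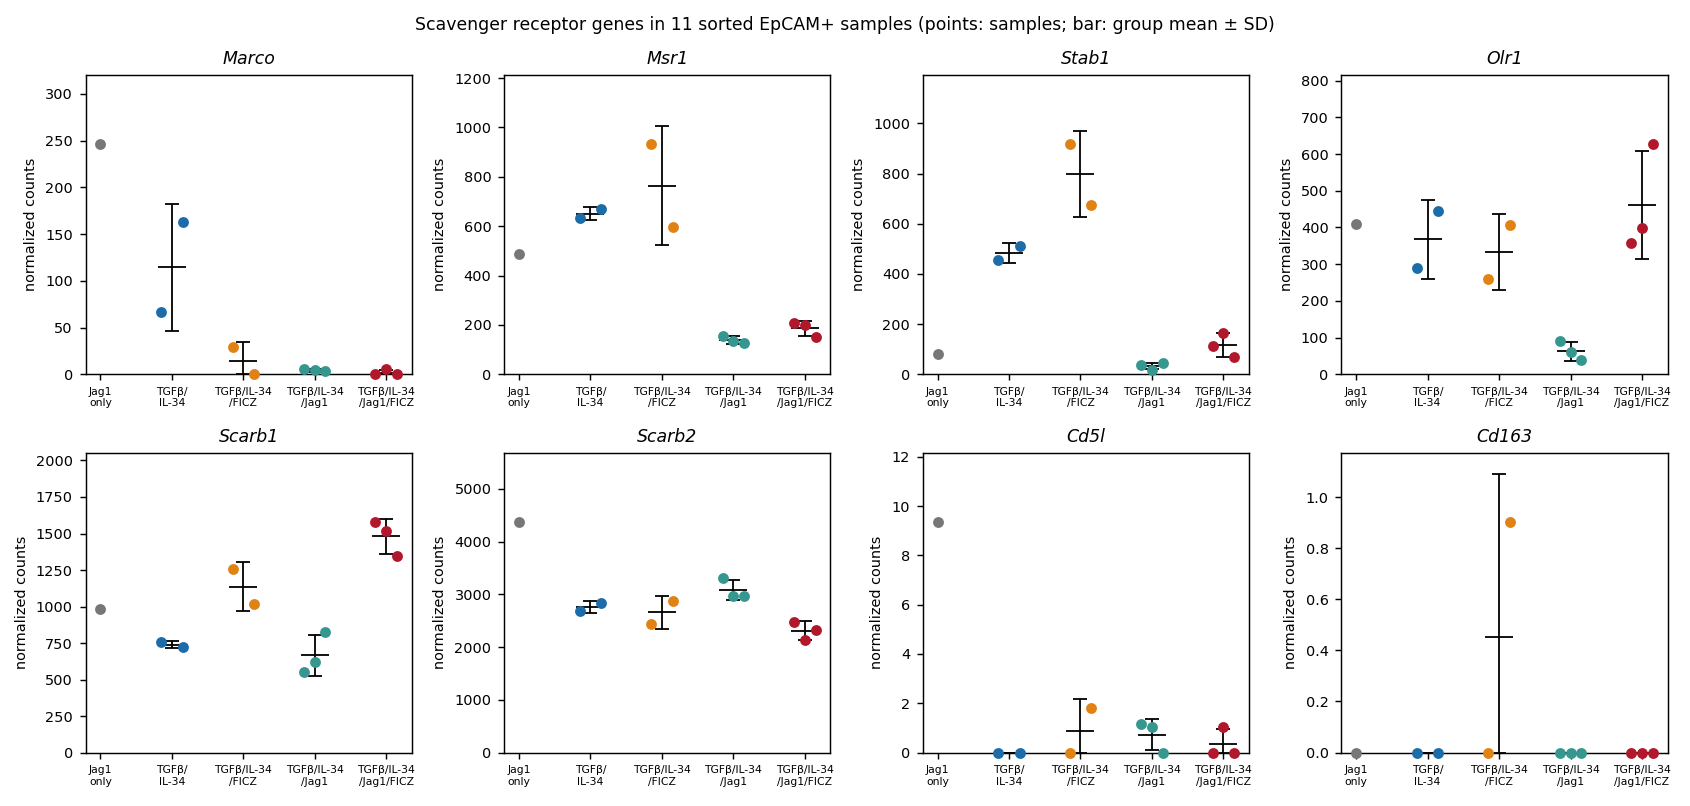
Normalized counts (vertical axes, linear from 0) of the 8 scavenger receptor genes by culture group. Points are samples, and horizontal bars with whiskers are the group mean ± SD, cut at 0; Jag1 only has 1 sample and no bar. Msr1 and Stab1 sit low in both groups with TGFβ/IL-34 and Jag1, Olr1 is low in TGFβ/IL-34/Jag1 alone (38.5 to 90.4), Scarb1 is highest in TGFβ/IL-34/Jag1/FICZ (1349 to 1579), and Cd163 and Cd5l stay under 10.

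With Jag1 and no FICZ, 3 of the 6 tested receptors fell, namely Msr1, Stab1 and Olr1, and none rose. The share called over all genes in this comparison (TGFβ/IL-34/Jag1 against TGFβ/IL-34) was 6.6%, with 2.64% called higher and 3.96% called lower. Neither class B receptor passed. The median log2 fold change of the 6 was −2.40, against −0.0041 over all 13095 genes tested.

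Msr1 (ENSMUSG00000025044, chromosome 8, 40034726 to 40095714, GRCm39) stood at 632 and 668 normalized counts in TGFβ/IL-34 and at 157, 135 and 125 in TGFβ/IL-34/Jag1. The groups did not overlap, which was so for 46.6% of all tested genes, whatever the size of the gap. The mean was 4.68-fold lower with Jag1 (log2 fold change −2.22, SE 0.261, limma adjusted p 0.000936). Stab1 (ENSMUSG00000042286, chromosome 14, 30860970 to 30890598) was at 456 and 513 without Jag1 and at 37.4, 18.7 and 43.2 with it. Its mean was 14.6-fold lower (log2 fold change −3.91, SE 0.440, adjusted p 0.000743), the largest change among the 3 called. Both genes passed under all 15 alternative settings, with adjusted p values up to 0.0239 for Msr1 and 0.0195 for Stab1.

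Olr1 (ENSMUSG00000030162, chromosome 6, 129462207 to 129484128) was at 291 and 444 in TGFβ/IL-34 and at 90.4, 59.8 and 38.5 in TGFβ/IL-34/Jag1. No sample of one group reached into the other. The mean was 5.84-fold lower (log2 fold change −2.58, SE 0.405, adjusted p 0.00441). Leaving out replicate 2 of TGFβ/IL-34 raised this to 0.0822. Marco (ENSMUSG00000026390, chromosome 1, 120402267 to 120432753) was at 66.7 and 163 without Jag1 and at 5.68, 4.16 and 2.95 with it, a level of a few reads. Its log2 fold change of −4.35 (SE 1.31) depends on the added 1 and missed the threshold (adjusted p 0.0838). It passed with a pseudocount of 4 (0.0215), with only these groups in the fit (0.0110) and with array weights (0.00544), which called 2627 genes against 864 without weights.

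Scarb1 (ENSMUSG00000037936, chromosome 5, 125353547 to 125418176) overlapped between the groups, at 756 and 722 without Jag1 and 552, 618 and 824 with it (log2 fold change −0.17, SE 0.204, adjusted p 0.749). Scarb2 (ENSMUSG00000029426, chromosome 5, 92589169 to 92654692) was at 2679 and 2841 without Jag1 and at 3300, 2965 and 2967 with it (log2 fold change 0.16, SE 0.152, adjusted p 0.678). The Scarb2 groups did not overlap, but the gap was small against the fitted spread.

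**Figure D2:**
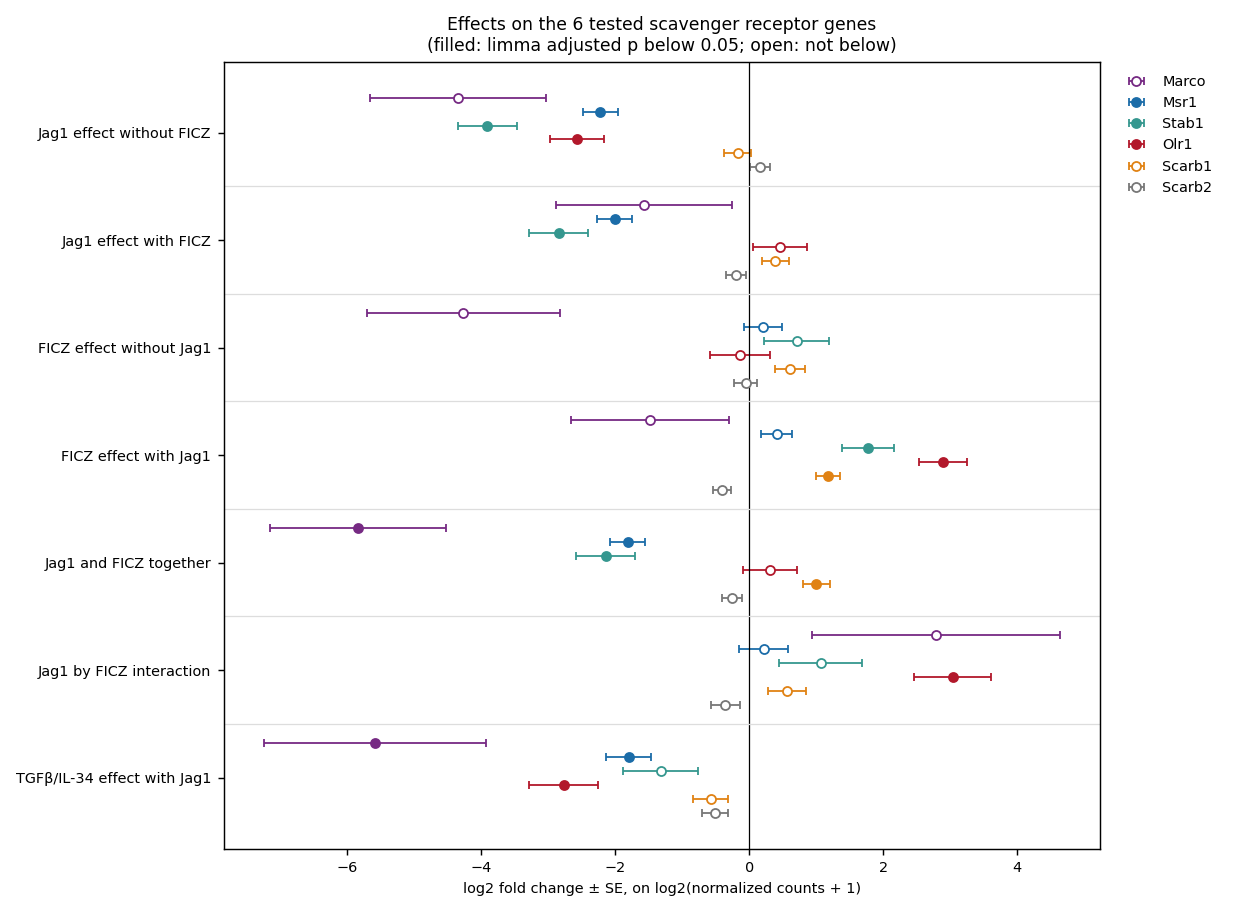
Log2 fold change ± SE (horizontal axis, on log2 of normalized counts + 1) of the 6 tested receptors in each of the 7 comparisons. Filled points had a limma adjusted p below 0.05 and open points did not. Msr1 and Stab1 lie left of 0 in both Jag1 effects, while Olr1 lies at −2.58 without FICZ and 0.46 with it, and Marco has the widest errors.

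The same question in the presence of FICZ used 5 other samples, those with both FICZ and TGFβ/IL-34, split by Jag1. Msr1 and Stab1 were lower with Jag1 again, and Olr1 was not. The 2 called compare with 2.02% called over all genes (1.41% higher, 0.603% lower). Msr1 was at 934 and 595 without Jag1 and at 207, 201 and 150 with it, 4.11-fold lower in the mean (log2 fold change −2.01, SE 0.261, adjusted p 0.00772). Stab1 was at 919 and 676 against 114, 166 and 68.0, 6.88-fold lower (log2 fold change −2.85, SE 0.440, adjusted p 0.0137). For both genes the samples with and without Jag1 lay apart, which was so for 35.8% of tested genes. Olr1 was at 260 and 407 against 357, 398 and 628, with overlapping groups (log2 fold change 0.46, SE 0.405, adjusted p 0.488).

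With only these groups in the fit, neither Msr1 nor Stab1 passed (adjusted p 0.0970 for both), nor did they with array weights (0.569 and 0.689). Both settings called 0 of the 13095 genes by limma (1807 and 913 had an unadjusted p under 0.05), and the log2 fold changes there were −2.01 and −1.99 for Msr1 and −2.85 and −2.82 for Stab1. Stab1 was also past 0.05 when replicate 1 of either group was left out (0.0545 for the group without Jag1, 0.0524 for the other). Marco was at 28.8 and 0 against 0, 5.23 and 0. Its log2 fold change of −1.57 (SE 1.31, adjusted p 0.460) became 0.88 without replicate 1 of TGFβ/IL-34/FICZ and −4.02 without replicate 2 (adjusted p 0.0151), where 5827 of 13057 genes were called against 264 in the fit of all samples. Scarb1 (0.39, SE 0.204, adjusted p 0.265) and Scarb2 (−0.20, SE 0.152, adjusted p 0.414) did not pass.

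FICZ in cultures with Jag1 gave higher Olr1, Stab1 and Scarb1. These 3 of 6 compare with 17.7% called over all genes (10.9% higher, 6.71% lower). The comparison shares the TGFβ/IL-34/Jag1 samples with the first Jag1 effect, so a low value there enters both. Olr1 rose from 90.4, 59.8 and 38.5 to 357, 398 and 628, 7.33-fold in the mean (log2 fold change 2.89, SE 0.362, adjusted p 0.000497) and overlapped the 4 samples without Jag1 (260 to 444), with 1 sample above them. Scarb1 rose from 552, 618 and 824 to 1579, 1517 and 1349, 2.23-fold (log2 fold change 1.17, SE 0.182, adjusted p 0.00162). Stab1 rose from 37.4, 18.7 and 43.2 to 114, 166 and 68.0, 3.50-fold (log2 fold change 1.77, SE 0.393, adjusted p 0.0109), and still lay below each of the 4 samples without Jag1 (456 to 919). None of these groups overlapped, and 45.1% of tested genes had no overlap.

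Leaving out replicate 2 of the FICZ group raised the adjusted p of Stab1 to 0.0540. With the flow cell as a block, Olr1, Scarb1 and Stab1 stayed called. Scarb2 was at 3300, 2965 and 2967 without FICZ and at 2474, 2126 and 2330 with it, lower in each FICZ sample, and did not pass (log2 fold change −0.41, SE 0.136, adjusted p 0.0616). The threshold was reached with no filter (0.0410), with array weights (0.0108) and with only these groups in the fit (0.0180). Array weights called 4123 genes over the table and the fit of these groups 3598, against 2312. Msr1 (0.41, SE 0.233, adjusted p 0.285) and Marco (−1.48, SE 1.17, adjusted p 0.457) did not pass either.

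Replicate numbers of these groups share an experiment code in the sample descriptions, and the direction was the same in all 3 codes for the genes called. On the log2 scale, the FICZ difference of Olr1 was 1.97 in AA45, 2.71 in AA47 and 3.99 in AA48. That of Scarb1 was 1.51, 1.29 and 0.71 in the same order. That of Stab1 was 1.58, 3.08 and 0.64, the widest spread of the 3. For the Jag1 effect without FICZ, AA47 and AA48 hold both groups, and the differences were −2.22 and −2.41 for Msr1, −4.54 and −3.54 for Stab1 and −2.26 and −3.50 for Olr1. For Jag1 with FICZ, AA45 and AA47 gave −2.17 and −1.56 for Msr1 and −3.00 and −2.02 for Stab1. FICZ without Jag1 could be compared within AA47 alone, from 1 sample a group. The authors' file gives AA45 in place of AA47 for replicate 1 of TGFβ/IL-34.

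**Figure D3:**
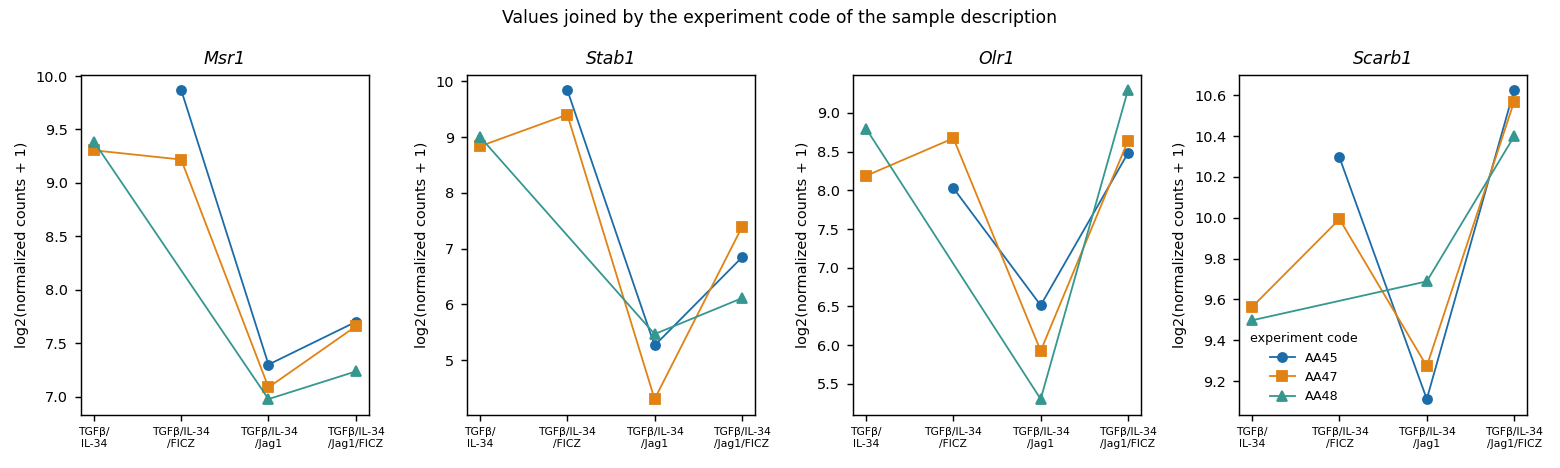
Log2 of normalized counts + 1 (vertical axes, not from 0) of Msr1, Stab1, Olr1 and Scarb1 in the 4 groups with TGFβ/IL-34, with samples of the same experiment code joined by lines. AA45 has no TGFβ/IL-34 sample and AA48 no TGFβ/IL-34/FICZ sample, so their lines start late or skip a group. In each code Olr1 falls to its lowest value in TGFβ/IL-34/Jag1 and is higher with FICZ added.

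FICZ without Jag1 gave no call among the 6 receptors, where limma called 0.0229% of all genes (0.0153% higher, 0.00764% lower). Of the 6, 2 had an unadjusted limma p under 0.05, Marco (0.0138) and Scarb1 (0.0204), as did 2284 of all 13095 tested genes. Scarb1 was at 756 and 722 in TGFβ/IL-34 and at 1255 and 1018 with FICZ, without overlap (log2 fold change 0.61, SE 0.223, adjusted p 0.285). With replicate 2 of TGFβ/IL-34/FICZ left out its adjusted p was 0.0230, in a fit that called 5734 of 13057 genes against 3 in the fit of all samples. Marco had the largest fitted difference, lower with FICZ and without overlap, at 66.7 and 163 in TGFβ/IL-34 and at 28.8 and 0 with FICZ (log2 fold change −4.27, SE 1.44, adjusted p 0.285), and leaving out single replicates moved it between −6.72 and −1.82. Stab1 was also higher in both FICZ samples (0.70, SE 0.481, adjusted p 0.398). In this comparison 45.7% of tested genes had no overlap. Msr1 (0.20, SE 0.285), Scarb2 (−0.06, SE 0.166) and Olr1 (−0.14, SE 0.443) overlapped between the groups.

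The interaction term compared the FICZ effect with Jag1 to that without it, and 1 of 6 receptors passed, against 1.39% of all genes (1.17% positive, 0.221% negative). For Olr1 the FICZ effects differed by 3.03 log2 units (SE 0.572, adjusted p 0.0424). The call was fragile: it was lost under 13 of 20 alternatives, with adjusted p values of 0.0545 to 0.298 in those, among them the replicate number and each experiment code as a block and the removal of 8 of the 10 samples in turn. The difference itself stayed between 2.71 and 3.36. For Scarb1 (0.56, SE 0.288, adjusted p 0.306), Stab1 (1.06, SE 0.622, adjusted p 0.348), Msr1 (0.21, SE 0.368, adjusted p 0.744), Marco (2.79, SE 1.86, adjusted p 0.396) and Scarb2 (−0.36, SE 0.215, adjusted p 0.357) no difference passed.

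Jag1 and FICZ together against TGFβ/IL-34 alone gave lower Marco, Msr1 and Stab1 and higher Scarb1. These 4 of 6 compare with 4.48% called over all genes (3.12% higher, 1.37% lower). Msr1 was lower by 1.81 (SE 0.261, adjusted p 0.00549), Stab1 by 2.14 (SE 0.440, adjusted p 0.0244) and Marco by 5.84 (SE 1.31, adjusted p 0.0357) log2 units, and Scarb1 was higher by 1.00 (SE 0.204, adjusted p 0.0239). None of these groups overlapped, as for 54.2% of tested genes. Neither Olr1 (0.31, SE 0.405, adjusted p 0.788) nor Scarb2 (−0.26, SE 0.152, adjusted p 0.446) passed. Within the experiment codes AA47 and AA48 the differences were 1.00 and 0.90 for Scarb1, −1.65 and −2.15 for Msr1 and −1.45 and −2.90 for Stab1. The calls rested on few samples: whichever of the 5 replicates was left out, at most 2 members passed. Without either TGFβ/IL-34 replicate no member passed (adjusted p 0.0634 to 0.277), and Marco, Stab1 and Scarb1 missed the threshold with the replicate number as a block (0.0544 to 0.0773).

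The Jag1 only culture, which had no TGFβ or IL-34, stood apart for several receptors. It held the highest Marco (247 normalized counts, against 0 to 163 in the other samples) and the highest Scarb2 (4372, against 2126 to 3300). Its Olr1 (411) lay within the range of the cultures without Jag1, and its Stab1 (79.6) within that of TGFβ/IL-34/Jag1/FICZ. Msr1 was at 486, between the samples with TGFβ/IL-34 and Jag1 (125 to 207) and those without Jag1 (595 to 934). There is 1 such sample, and the fit assumed that it varies like the other groups. Against it, TGFβ/IL-34/Jag1 was lower in Marco (−5.59, SE 1.66, adjusted p 0.0443), Msr1 (−1.80, SE 0.330, adjusted p 0.00541) and Olr1 (−2.77, SE 0.512, adjusted p 0.00570), beside 16.9% of all genes called (7.51% higher, 9.34% lower). AA45, the code of that sample, holds 1 sample of each group and gave −5.21 for Marco, −1.63 for Msr1 and −2.17 for Olr1.

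Marco lost this call under 8 of 13 alternatives (adjusted p up to 0.126), and Olr1 with only these groups in the fit (0.0662). All 6 receptors passed with array weights, which called 4318 of 13095 genes against 2207 without weights, and 2 passed whichever TGFβ/IL-34/Jag1 replicate was left out. Without weights Stab1 (−1.32, SE 0.556, adjusted p 0.135), Scarb1 (−0.58, SE 0.258, adjusted p 0.157) and Scarb2 (−0.51, SE 0.192, adjusted p 0.10) did not. The share of genes that did not overlap, 74.6%, is high because 1 group holds 1 sample.

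Cd163 (ENSMUSG00000008845, chromosome 6, 124281606 to 124307560), the haptoglobin-haemoglobin receptor, was at 0 in 10 of 11 samples and at 0.903 normalized counts, about 1 read, in replicate 2 of TGFβ/IL-34/FICZ. Cd5l (ENSMUSG00000015854, chromosome 3, 87265182 to 87278380), a secreted protein of tissue macrophages, was at 9.36 in Jag1 only, at 1.04 to 1.79 in 4 samples and at 0 in the other 6. Neither reached 10 normalized counts in any sample, and at this depth no difference between the groups with TGFβ/IL-34 was detectable for them.

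Across the 11 samples, Msr1 and Stab1 had the most similar patterns of the 6 receptors (Pearson's r 0.889 on the log2 scale), and Scarb1 and Scarb2 the most opposed (−0.560). These coefficients describe samples that share culture groups and experiments. By the same measure, over 13084 tested genes with a symbol, the genes most like Olr1 were Gramd1b (0.967), Sh2b2 (0.962) and Cd93 (0.960). Those most like Scarb1 were Cth (0.963), Prss57 (0.963) and Macroh2a1 (0.962), and those most like Stab1 were Rbpms (0.950), Fmnl3 (0.946) and Kcnk13 (0.945). Marco was most like Mrc1 (0.912), with Lrrc45 (0.872) also among its nearest, Msr1 like Kcnd1 (0.921), Sh3bgrl2 (0.918) and Trmt1l (0.913), and Scarb2 like Tbc1d10b (0.943), Srxn1 (0.940) and Fam76a (0.924).

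Of 20 other scavenger receptor genes, 13 were tested and few were called. With Jag1 and no FICZ, 1 was lower and 12 were not called, with a median log2 fold change of −0.22, and 6.6% of all genes were called. The 1 was Cd68, a lysosomal mucin-like receptor, which fell from 637 ± 3.22 (SD, n = 2) to 293 ± 42.9 normalized counts (SD over 3 samples) under Jag1 (log2 fold change −1.13, SE 0.229, adjusted p 0.0165). With FICZ added to Jag1, Cd68 rose to 1174 ± 105 (SD over 3 samples), by 2.01 log2 units (SE 0.205, adjusted p 0.000168), again the 1 called of 13 (median −0.18), against 17.7% of all genes. Mrc1, the mannose receptor, was lower under Jag1 and FICZ together (−5.71, SE 1.25, adjusted p 0.0327), at 104 ± 48.4 (SD, n = 2) and 1.15 ± 1.26 (SD, n = 3). No other receptor of the list was called by limma with TGFβ/IL-34 in both groups. In the comparisons without a call 2 (FICZ alone), 3 (Jag1 with FICZ) and 5 (interaction) had an unadjusted p under 0.05. Over all 13095 tested genes, 2284, 3039 and 2458 did. Cd36, a class B relative that takes up fatty acids, was at 2720 ± 403 (SD, n = 2) before and at 2657 ± 1286 (SD, n = 3) after Jag1 was added (limma adjusted p 0.891), and Cxcl16, a membrane chemokine that binds oxidized LDL, at 20753 ± 98.9 and 21241 ± 1804 (limma adjusted p 0.973).

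**Figure D4:**
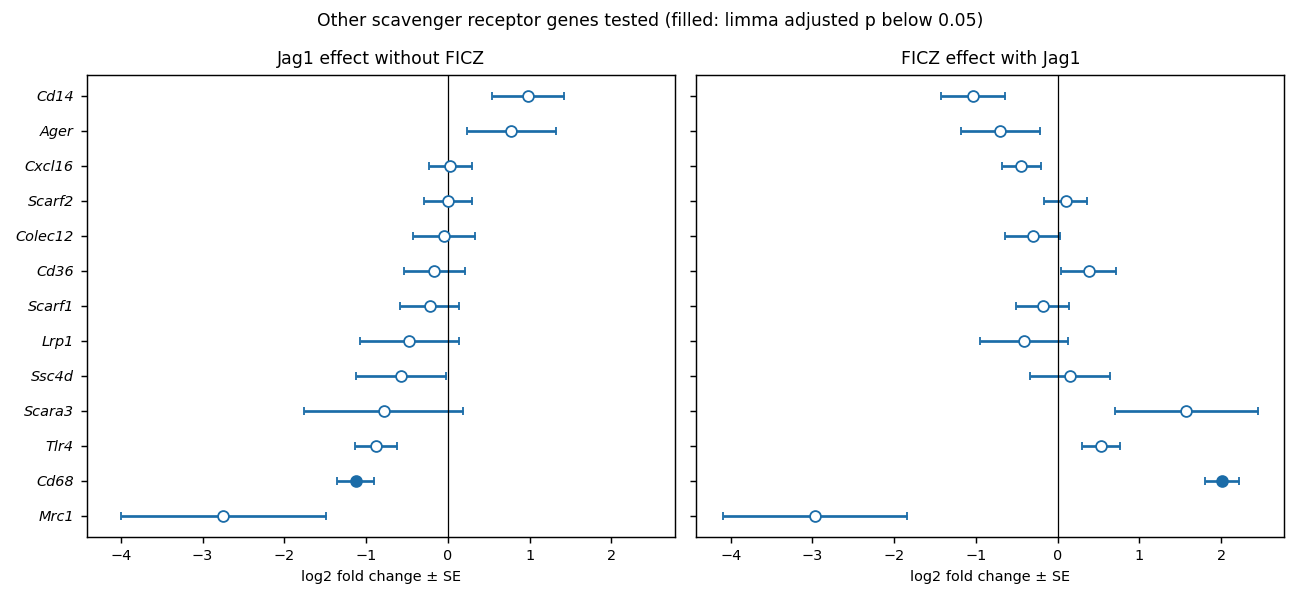
Log2 fold change ± SE (horizontal axes) of the 13 tested genes of the wider scavenger receptor list under Jag1 without FICZ (left) and FICZ with Jag1 (right), which share the TGFβ/IL-34/Jag1 samples. Filled points had a limma adjusted p below 0.05. Cd68 is the only filled gene in each panel, at −1.13 and 2.01.

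Genes that handle the lipid cargo of these receptors were counted next. Of 17, 16 were tested. With Jag1 and no FICZ, Plin2, the coat protein of lipid droplets, rose (1.97, SE 0.201, adjusted p 0.000458), and Lpl, which hydrolyses lipoprotein triglycerides (−2.49, SE 0.264, adjusted p 0.000533), and the cholesterol exporter Abca1 (−1.80, SE 0.435, adjusted p 0.0355) fell, while 13 were not called. The 3 called of 16 compare with 6.6% of all genes. With FICZ added to Jag1, 2 rose and 5 fell, against 10.9% and 6.71% of all genes. Apoe, a lipoprotein component secreted by macrophages, was at 271 ± 236 without FICZ and rose to 2135 ± 624 (SD over 3 samples each), higher by 3.28 log2 units (SE 0.616, adjusted p 0.00461), and Lpl rose by 0.94 (SE 0.236, adjusted p 0.0202). Plin2 (−2.58), Rxra (−2.31) and Nr1h3 (−2.14) led the 5 that fell, and the latter encode subunits of the sterol-sensing LXR complex. The interaction called 1, Plin2 (−2.24, SE 0.285, adjusted p 0.00835), against 1.39% of all genes. For FICZ without Jag1 and for Jag1 with FICZ limma called none, and 7 and 5 had an unadjusted p under 0.05. Over all 13095 tested genes, 2284 and 3039 did. Under Jag1 and FICZ together 3 fell, Lpl, Lipa and Npc1, against 1.37% of all genes.

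As partners of Scarb2, 8 lysosomal genes were tested. Jag1 lowered 1 of the 8 without FICZ and 2 with it, against 3.96% and 0.603% of all genes. Among the latter was Psap, the saposin precursor (−1.06, SE 0.195, adjusted p 0.0269). FICZ with Jag1 lowered 1, Psap (−0.87, SE 0.174, adjusted p 0.00628), against 6.71% of all genes. Under FICZ alone, both together and the interaction limma called none, and 1, 5 and 2 had an unadjusted p under 0.05. Over all 13095 tested genes, 2284, 2335 and 2458 did.

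All 15 macrophage transcription factors of the list were tested. Jag1 without FICZ raised 1 and lowered 1, against 2.64% and 3.96% of all genes. It lowered Id3, an inhibitor of basic helix-loop-helix factors (−3.58, SE 0.503, adjusted p 0.00256). FICZ with Jag1 lowered 5 and raised none, where 6.71% of all genes were lower, among them Tfec (−2.17, SE 0.249, adjusted p 0.000305) and Nr1h3. Id3 was at 934 to 1290 in the 4 samples without Jag1 and at 37.3 to 232 in the 7 with it, and Jag1 lowered it with FICZ as well (−2.62, SE 0.503, adjusted p 0.0298). Jag1 with FICZ lowered 2 (Id3 and Tfec) and both together 3 (Id3, Tfec and Mitf), against 0.603% and 1.37% of all genes. For FICZ alone and the interaction limma called none, and 3 and 4 had an unadjusted p under 0.05. Over all 13095 tested genes, 2284 and 2458 did.

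Markers of other cells moved with some of these comparisons. The summed level of 6 macrophage markers was 13744 to 25618 in TGFβ/IL-34/Jag1 and 17192 to 18586 in TGFβ/IL-34, so the groups in which Msr1, Stab1 and Olr1 fell overlapped in it, and none of the 6 was at 0 throughout a group. Taken singly, all 6 were called there, against 6.6% of all genes, and they split. The complement genes C1qa (4.01) and C1qb (2.90) and the efferocytosis receptor Mertk (2.49) rose. The Fc receptor Fcgr1 (−3.14), Adgre1 (−1.13), which encodes F4/80, and Cd68 fell. As a sum over 5 genes, mast cell markers fell with the receptors under Jag1 without FICZ, from 6042 to 6293 down to 1745 to 2902. Of the 4 tested, 3 were called lower, against 3.96% of all genes. Among them was Gata2, a transcription factor of mast cells and progenitors, at 4280 ± 164 (SD, n = 2) and 579 ± 71.7 (SD, n = 3). Kit was not, with a higher mean under Jag1, at 1169 ± 204 (SD, n = 2) and 1716 ± 698 (SD, n = 3). In the cultures with FICZ, where Msr1 and Stab1 also fell with Jag1, the mast cell sum overlapped. It was 8259 to 11714 without Jag1 and 8977 to 11697 with it. Of the 3 Langerhans cell markers, langerin (Cd207) was at 154 to 157 in TGFβ/IL-34 and 1366 to 1784 in TGFβ/IL-34/Jag1 (limma adjusted p 0.0756). Epcam also had a higher mean with Jag1 there, at 4878 ± 243 (SD, n = 2) and 11190 ± 3425 (SD, n = 3). Cdh1 had a lower one, at 15512 ± 644 (SD, n = 2) and 12815 ± 4865 (SD, n = 3). In the cultures with FICZ, Cd207 was at 6.21 to 6.90 without Jag1 and 6.29 to 132 with it. With FICZ added to Jag1, C1qa (−3.28), C1qb (−3.14) and Mertk (−2.62) fell and Cd68 rose. The 4 immature granulocyte markers summed to 49.3 to 254 in TGFβ/IL-34/Jag1 and to 3767 to 6395 with FICZ added, the groups between which Scarb1, Olr1 and Stab1 rose. Of the 4, 3 were called higher, against 10.9% of all genes. Mpo was not, and stayed low at 6.52 ± 4.94 without FICZ and 3.95 ± 0.293 with it (SD, n = 3 each). The 5 neutrophil markers went from 84.3 to 191 up to 1627 to 2608 and the 5 mast cell markers from 1745 to 2902 up to 8977 to 11697 between the same groups, with Retnlg at 0 in the former and Fcer1a at 0 in both. Their part in the result was not tested. FICZ without Jag1, which gave no receptor call, also went with a higher immature granulocyte sum, at 1738 to 3707 against 218 to 370. The mast cell sum was higher there too, at 8259 to 11714 against 6042 to 6293. Neutrophil sums overlapped between those groups, at 918 to 991 with FICZ and 121 to 1013 without it. Stab1 is also known from sinusoidal endothelium, and of 5 endothelial markers Emcn was at 0 in all samples, Cdh5 and Lyve1 were at 0 to 5.75, and Kdr was at 34.2 in Jag1 only and 0.903 to 11.99 elsewhere. Pecam1, also made by leukocytes, gave nearly all of the sum and followed Stab1 only in part. Jag1 without FICZ brought Pecam1 down like Stab1, 1238 ± 151 (SD, n = 2) becoming 224 ± 33.3 (SD, n = 3). FICZ added to Jag1 then raised both genes, Pecam1 reaching 3812 ± 346 (SD, n = 3). This Pecam1 level exceeded both groups lacking Jag1, including TGFβ/IL-34/FICZ with 2944 ± 274 (SD, n = 2). Stab1, by contrast, stayed below both of those groups. The part of these markers in the results was not tested. The 3 hepatocyte markers were at 0 but for a value of 0.946 in 1 sample.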

How the data were processed

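Reads were quantified by the authors with salmon against Ensembl transcripts of GRCm39, imported per gene by tximport and scaled in DESeq2. Versions are not given in the sources used here. The deposited values are a normalized signal per gene, that is, counts divided by size and length factors, and were used as deposited. A second table of the authors gives an experiment code per sample, which differs from the sample description in 1 of 11. Low values of genes with 1 transcript (2758 genes) gave the worth of 1 read. Values up to 15 reads were whole within 0.1 reads for 51.2% to 58.2% of all genes' values, so no count model was applied.

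The test covered the 13095 of 21860 genes that reached 10 in 2 or more samples. Values were taken as log2(value + 1), which understates changes of low genes, and modelled by limma 3.58.1 (trend; R 4.3.3) on all 11 samples, as 5 group means without covariates. Two-sided p-values were adjusted per contrast over all tested genes (Benjamini-Hochberg), with a threshold of 0.05. Coordinates and canonical transcript lengths are from GENCODE vM39 (GRCm39). Promoters are from RefSeq (GRCm38.p6), and no coordinates were carried between builds. The scripts were tested on simulated counts.

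The members and gene lists were chosen with earlier results of these data known. Named were all 8 members, the 3 genes most like each tested member, and up to 3 called genes per direction, list and contrast. The lists were other scavenger receptors, lipid and cholesterol handling, haem iron handling, macrophage transcription factors, lysosomal partners of Scarb2, and cell type markers. Marker genes, Cd36 and Cxcl16 were named beyond that rule, and some genes that it names are not reported here. Between the Jag1 groups with and without FICZ, same-numbered samples share an experiment code, and their deviations from the group mean correlated across genes (0.153, 0.122 and 0.166), so the numbers pair these groups. Numbers 1 and 2 of TGFβ/IL-34/FICZ also follow the experiment code of the groups with Jag1. Their correlations with the same numbers were 0.0591 and 0.0578 for TGFβ/IL-34/Jag1/FICZ and 0.197 and 0.0880 for TGFβ/IL-34/Jag1. The numbers of TGFβ/IL-34 do not follow the code. The alternatives tried were normalization by quantiles, pseudocounts of 0.5 and 4, no filter, only the groups of a contrast, array weights, blocks for replicate number, experiment code and flow cell, and leaving out each replicate.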

Additional observations from a re-analysis of the deposited data

Results flagged for a closer look

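The FICZ effect on Olr1 differed between cultures with and without Jag1, by 3.03 on the log2 scale (SE 0.572, limma adjusted p 0.0424 for the interaction of Jag1 and FICZ). With Jag1, Olr1 was at 38.5 to 90.4 normalized counts without FICZ and at 357 to 628 with it. Without Jag1 it was at 291 and 444 without FICZ and at 260 and 407 with it. The adjusted p over the alternatives ranged from 0.00266 to 0.298, the lowest without replicate 2 of TGFβ/IL-34/FICZ, where 5497 of 13057 genes were called against 182 in the fit of all samples. No group had the 4 samples needed to look for single outlying values.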

How the results depend on the processing

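Over 42 log2 fold changes of the 6 tested receptors and 648 alternative values, 572 kept direction and side of the threshold, 55 lost the call, 12 gained it and 9 changed sign. The cause was not tested. The number of receptors called for Jag1 and FICZ together (4) was 1 with the replicate number as a block, 2 when either experiment code, that of the description or that of the authors' file, was the block, and 0 to 2 when single replicates were left out. For Jag1 with FICZ (2) it was 0 with array weights or with only the groups of the contrast, and 1 to 3 with replicates left out. For the interaction (1) it was 0 with no filter, array weights, the replicate number or either experiment code as a block, and 0 to 1 with replicates left out. For FICZ without Jag1 (0) it was 0 to 1 with replicates left out, and for TGFβ/IL-34 with Jag1 (3) it was 6 with array weights.

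Changes of sign were limited to effects that had not been called. Under FICZ without Jag1, Msr1 was at −0.016 when the block was the description's experiment code, −0.013 when it was the flow cell, and −0.13 to 0.52 with replicates left out, Scarb2 at −0.18 to 0.063 and Olr1 at −0.46 to 0.18 with replicates left out and 0.14 when the flow cell was the block. Marco under Jag1 with FICZ ranged from −4.02 to 0.88, and Msr1 in the interaction from −0.11 to 0.54, with replicates left out. In FICZ with Jag1, where the numbers pair the samples, the replicate block changed no call of a receptor (Olr1 2.89, Scarb1 1.17, Stab1 1.77), nor did it for Jag1 with FICZ (Msr1 −1.90, Stab1 −2.79), whose numbers also follow the experiment code. Beyond the counts above, the block ended the call of Marco for TGFβ/IL-34 with Jag1 (adjusted p 0.124) and changed no other call. Marco rests on 0 to 5 reads in the cultures with TGFβ/IL-34 and Jag1, and groups of 1 to 3 samples limit all tests.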

Other observations

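Genes of haem and haemoglobin iron handling, the pathway that Cd163 feeds, were counted between the cultures with TGFβ/IL-34. Of 14 genes 13 were tested. Among the comparisons of these cultures, limma called some only for FICZ with Jag1, where 2 fell, Fth1, the ferritin heavy chain (log2 fold change −2.32, SE 0.384, adjusted p 0.00225), and Nfe2l2, a regulator of the oxidative stress response (−1.21, SE 0.196, adjusted p 0.00199). Over all genes 6.71% were lower there. In the comparisons without a call, 1 (FICZ without Jag1) to 7 (Jag1 with FICZ) of the 13 had an unadjusted p under 0.05. Over all 13095 tested genes, 2284 and 3039 did in these 2.

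The Jag1 only culture, which held the highest Marco and Cd5l, stood apart for this list too. Slc40a1 (ferroportin, the iron exporter) was at 268 normalized counts there and at 1.90 to 23.8 in the other 10 samples. Spic, a transcription factor of red pulp macrophages, was at 159 against 3.94 to 34.6, and Hmox1, which degrades haem, at 1959 against 245 to 1321. TGFβ/IL-34/Jag1 was lower than this sample in all 3 (Slc40a1 −5.42, SE 0.806, adjusted p 0.00207; Spic −3.51, SE 1.05, adjusted p 0.0457; Hmox1 −1.82, SE 0.448, adjusted p 0.0203), with the lone sample assumed to vary like the other groups. Tfrc (3.29) and Fth1 (1.98) were higher. In the same comparison Cd68 (−2.62) was lower and Scarf2 (2.15) higher among the other scavenger receptors, and 3 of 16 lipid handling genes were higher (Nceh1, Rxra, Plin2) and 3 lower (Abcg1, Lpl, Npc2). Of 15 transcription factors 4 were higher and 1 lower, Spic, and of 8 lysosomal genes Psap was lower (−1.60). Over all genes, 7.51% were higher and 9.34% lower in this comparison. The summed stroma markers of this sample were 342 normalized counts, against 332 to 885 in TGFβ/IL-34/Jag1.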
